A study of Homo sapiens with 24 samples.

Results

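The ovarian cancer cell line OV90, of epithelial origin, was compared between spheroid and adherent culture while RELA was silenced. RELA encodes the p65 subunit of the transcription factor NF-κB. Of the 24 small RNA sequencing (miR-seq) libraries in the series, the 8 that carried the inducible shRNA against RELA (shRELA) were used for the comparison, 4 from adherent and 4 from spheroid culture, across all mature miRNAs in the count table. The other 16 libraries, 4 in each culture with the negative control shRNA (shNeg, labelled wild type) and 4 in each culture with an shRNA against RELB (shRELB), entered the same model and served for the differences given at the end. All cells, controls included, had received doxycycline at 1 µg/ml for 72 h. The adherent cells grew in RPMI with 10% tetracycline-free fetal calf serum. Spheroids grew in ultra-low attachment vessels in DMEM-F12 with 1% KnockOut serum replacement, insulin-transferrin-selenium, albumin, EGF at 20 ng/ml and FGF at 10 ng/ml, so that attachment, serum and growth factors changed together and cannot be told apart. A small RNA library does not read RELA mRNA, and the silencing was therefore not checked in these libraries. No label says whether the 4 replicates of a group were separate cultures, so that p-values measure the spread between these libraries, which may be technical.

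A miRNA is a short RNA that guides an Argonaute protein to matching sites in mRNAs and lowers their output. Bases 2 to 8 from its 5′ end, the seed, set most of the pairing, and miRNAs with the same seed form a family with overlapping targets. Each hairpin precursor is cut into a 5p and a 3p arm, of which usually one is kept. Spheroid culture of ovarian cancer cells serves to enrich tumor-initiating cells (TICs), the fraction thought to seed relapse, and NF-κB acts in these cells through RELA in its classical and RELB in its alternative arm.

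The sequences below are those of the 10 largest differences in each direction among differentially expressed miRNAs that reached 10 CPM and did not overlap between groups, without miR-483-3p and miR-130a-3p, and with relatives that share a seed, taken from RefSeq for GRCh38.p14. Capitals mark the seed, and each sequence runs 5′ to 3′. The first group holds miRNAs that were higher in spheroids. The miR-320 members share the seed AAAGCUG. Counting from 1 at the 5′ end of the first named, miR-320b and miR-320c differ by C20U within their shared length, and miR-320c and miR-320d by G19A, so that reads of one can be assigned to another.
miR-320b: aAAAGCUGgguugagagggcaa
miR-320c: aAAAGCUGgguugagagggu
miR-320d: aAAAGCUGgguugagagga
miR-1246: aAUGGAUUuuuggagcagg
miR-1290: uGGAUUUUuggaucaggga
miR-4516: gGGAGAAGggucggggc
miR-509-3p: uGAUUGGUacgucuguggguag
miR-1224-5p: gUGAGGACucgggaggugg
miR-449c-5p: uAGGCAGUguauugcuagcggcugu
miR-664b-5p: uGGGCUAAgggagaugauugggua

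The second group holds miRNAs that were lower in spheroids, in 3 seed families and as single miRNAs. Within the families miR-17-5p and miR-106a-5p differ by C1A alone, miR-17-5p and miR-20a-5p by C1U and C12U, and miR-29a-3p and miR-29c-3p by C10U, with the same uncertainty about which read belongs to which.
miR-106a-5p: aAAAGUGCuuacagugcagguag
miR-17-5p: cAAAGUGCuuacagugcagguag
miR-20a-5p: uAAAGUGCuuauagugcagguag
miR-454-3p: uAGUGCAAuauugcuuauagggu
miR-130b-3p: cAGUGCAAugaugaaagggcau
miR-301a-3p: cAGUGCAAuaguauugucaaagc
miR-29a-3p: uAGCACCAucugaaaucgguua
miR-29c-3p: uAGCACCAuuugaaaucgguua
miR-335-5p: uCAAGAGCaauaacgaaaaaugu
miR-335-3p: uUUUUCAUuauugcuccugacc
miR-374b-5p: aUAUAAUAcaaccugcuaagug
miR-32-3p: cAAUUUAGugugugugauauuu
miR-12135: uAAAGGUUuguuuguaaa

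Adherent shRELA libraries were the deeper ones, with 5282900 to 8283558 miRNA counts against 2024143 to 2747612 in spheroids, and 1052 to 1155 against 857 to 914 miRNAs had a count. The limit that a count of 0 allows, 3 counts, came to 0.362 to 0.568 CPM in adherent and 1.09 to 1.48 CPM in spheroid libraries. These limits use raw library totals, without the scaling described below, and cover counting error alone. The table lists 2656 mature miRNAs, of which 1571 had a count in the 8 libraries and 905 reached 1 CPM in at least 4 of the 24 libraries and were tested. CPM are counts rescaled to a common library total, here scaled by TMM (trimmed mean of M values), a share of all miRNA counts and not an amount per cell. Spheroid replicate 1 stood apart from the other 3 spheroid libraries for several abundant miRNAs, and the adherent replicates differed among themselves along their depth, adherent replicate 4 being the deepest and adherent replicate 3 the shallowest.

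Spheroid culture under shRELA shifted about equal numbers of miRNAs up and down. At a false discovery rate (FDR) below 0.01 and a fold change above 2, 291 of 905 miRNAs (32.2%) were differentially expressed, with 151 up-regulated (16.7%) and 140 down-regulated (15.5%) in spheroids. The 2 groups of 4 libraries did not overlap for 264 of the 291, against 419 of all 905 (46.3%). The median log2 fold change over all tested miRNAs was 0.07, with an interquartile range of -1.22 to 1.37. Among the 321 whose mean level reached 10 CPM, 157 were differentially expressed. By share of reads the movement was uneven. The up-regulated miRNAs together took 1.67 to 2.85% of adherent and 10.8 to 11.9% of spheroid counts, and the down-regulated ones 19.3 to 25.5% of adherent and 7.79 to 8.58% of spheroid counts. With median-ratio size factors the split was 136 up-regulated and 166 down-regulated, and with library totals alone 167 and 115, since that scaling moved the median of all miRNAs to 0.22.

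**Figure D1:**
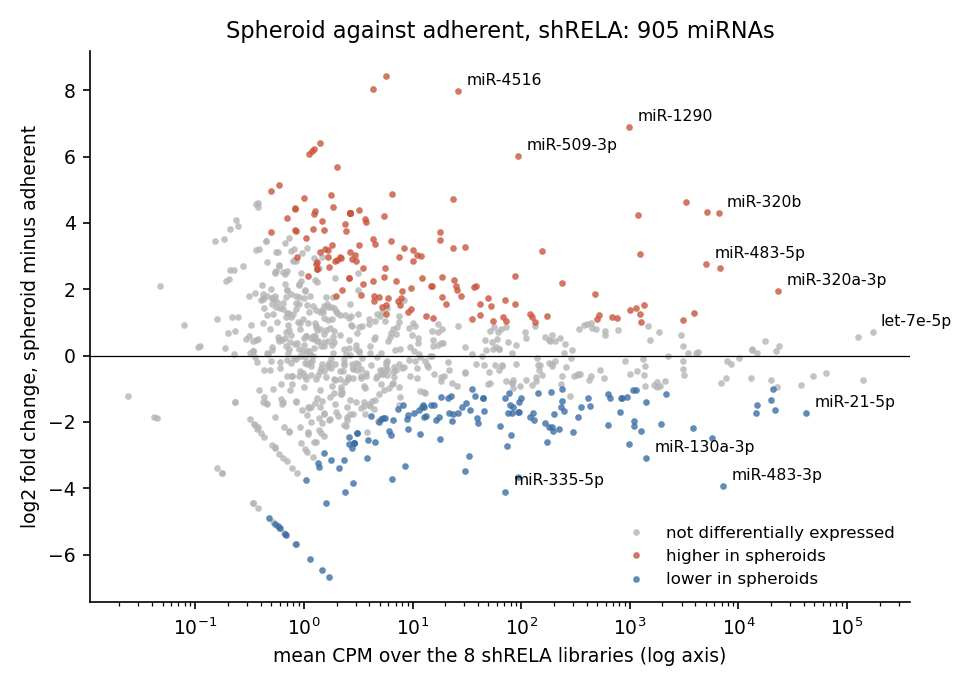
Log2 fold change of spheroid against adherent shRELA libraries (y) against the mean CPM of each of the 905 tested miRNAs over the 8 libraries (x, log axis), with up-regulated miRNAs in red and down-regulated ones in blue. The most abundant miRNAs lie near 0, and miR-1290 and the miR-320 members stand out at high level and large change.

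Members of the miR-320 family were among the abundant miRNAs that rose. Its hairpins are known to enter the pathway without Drosha, the nuclease that cuts most precursors out of their transcripts. miR-320b had 614, 668, 716 and 576 CPM in adherent replicates 1 to 4 and 12981, 12925, 12554 and 11651 CPM in spheroid replicates 1 to 4, a log2 fold change of 4.28 ± 0.21 (± SE, FDR = 5.06e-18). Fold changes in parentheses are log2 values with their SE throughout. miR-320c went from 466, 496, 548 and 437 CPM to 10128, 10184, 9832 and 9316 CPM (4.34 ± 0.20, FDR = 1.5e-18). For miR-320d the values were 247, 265, 268 and 241 CPM and 6142, 6551, 6307 and 6173 CPM (4.62 ± 0.22, FDR = 1.48e-18). Lack of overlap between cultures was a condition for naming all 3, and the 4 replicates of a culture lay close together. miR-320a-3p, the most abundant relative, rose less steeply, from a mean of 9584 ± 1117 to 36776 ± 5608 CPM (SD, n = 4; 1.94 ± 0.20, FDR = 1.11e-09), and miR-320e rose alike (1.96 ± 0.27). miR-484, which also bypasses Drosha, moved the other way, from 933, 1068, 953 and 1166 CPM to 354, 192, 207 and 208 CPM (-2.10 ± 0.25, FDR = 2.48e-08). Of the 6 members of this list 5 were thus up-regulated and 1 down-regulated, against 16.7% and 15.5% of all tested miRNAs. The median log2 fold change of the list was 3.12. The hairpins of miR-320b lie on chromosome 1, at chr1:116671746-116671817 outside any gene of the same strand and at chr1:224257040-224257110 in an intron of NVL, and that of miR-484 at chr16:15643294-15643372 in an exon of NDE1 (GRCh38.p14, GENCODE).

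**Figure D2:**
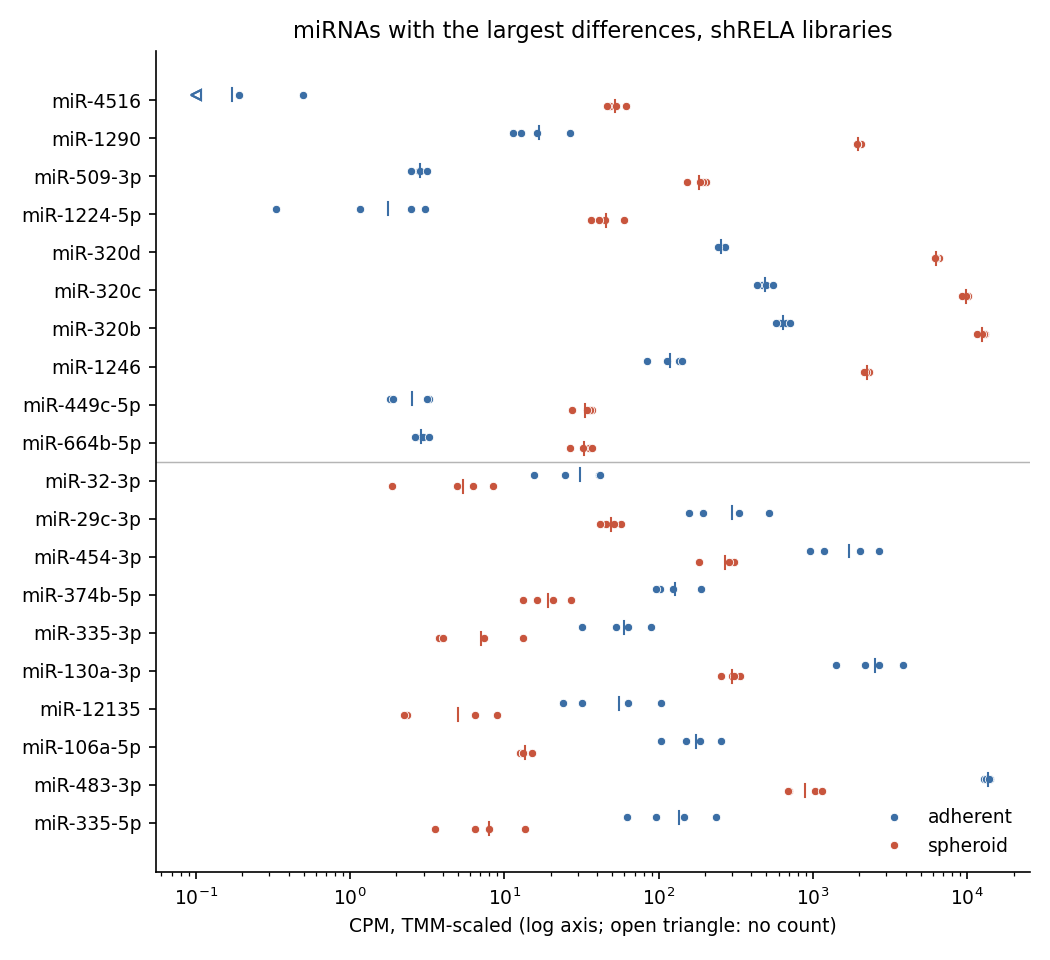
CPM in each of the 8 shRELA libraries (x, log axis; points are libraries, vertical ticks group means, open triangles libraries with no count) for the 10 miRNAs with the highest and the 10 with the lowest log2 fold change among called, non-overlapping miRNAs of at least 10 CPM. The 2 cultures are separate in every row because only such miRNAs were chosen. The adherent libraries spread more widely for most of the miRNAs that fell than for the miR-320 members.

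Other large rises included miR-1290, miR-1246, miR-664b-5p and miR-4516. The sequences of miR-1246 and miR-664b-5p also occur in other small RNAs, while no such match was found for miR-1290 and miR-4516. miR-1290 had 12.9, 16.2, 26.5 and 11.4 CPM in the adherent and 2053, 1938, 1944 and 1924 CPM in the spheroid libraries, a log2 fold change of 6.88 ± 0.29 (FDR = 1.32e-19). miR-1246 had 135, 83.6, 141 and 113 and 2321, 2319, 2199 and 2134 CPM (4.25 ± 0.22, FDR = 1.21e-17). The spheroid values of both spread little, and no adherent library came near them. The whole of miR-1246 matches transcripts of 8 U2 small nuclear RNA genes and pseudogenes in GENCODE, among them RNU2-1, and it shares a run of 12 bases, uggauuuuugga, with miR-1290. Reads of U2, a component of the spliceosome, could not be told apart from miR-1246. miR-664b-5p, whose hairpin lies within the small nucleolar RNA SNORA36A in DKC1 (chrX:154768596-154768656), had 2.97, 2.67, 3.24 and 2.65 CPM and 26.7, 35.2, 37.2 and 32.3 CPM (3.50 ± 0.41, FDR = 1.82e-08). miR-4516 was close to absent in adherent cells, with 3, 1, 0 and 0 counts in replicates 1 to 4, and had 103, 88, 119 and 163 counts in the spheroid libraries. The ratio of the pooled counts, scaled for library size, was 300.0, with an exact 95% counting interval of 116 to 1106. Under shNeg and shRELB the same miRNAs were also up-regulated in spheroids, miR-1290 by 5.96 ± 0.28 and 6.44 ± 0.28 on the log2 scale.

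The remaining large rises began from low levels. miR-509-3p, from an X-linked cluster of 3 hairpins between chrX:147258760-147258850 and chrX:147260532-147260625, had 2.81, 2.48, 2.86 and 3.14 CPM and 202, 151.8, 195 and 187 CPM (6.01 ± 0.27, FDR = 5.14e-19). miR-1224-5p, from a short intron of VWA5B2 (chr3:184241405-184241489), had 0.33, 3.05, 2.48 and 1.16 and 59.5, 45.2, 36.7 and 41 CPM (4.71 ± 0.54, FDR = 1.24e-08). miR-449c-5p, encoded in an intron of CDC20B (chr5:55172262-55172353) in a cluster known from multiciliated epithelium, had 1.82, 1.91, 3.24 and 3.14 and 37, 35.7, 27.3 and 34.2 CPM (3.71 ± 0.50, FDR = 2.18e-07). Spheroid and adherent values were apart for each of these, as the rule for naming them required, with no adherent library above 3.24 CPM.

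The miR-17-92 cluster, in exons of MIR17HG on chromosome 13, is an oncogenic cluster that promotes cell cycle entry and survival. Of its 6 guide strands 5 were down-regulated and none up-regulated, against 15.5% and 16.7% of all tested miRNAs. Their median log2 fold change was -1.70. miR-20a-5p had 10208, 8357, 5637 and 14997 CPM in the adherent and 2212, 1686, 1718 and 1407 CPM in the spheroid libraries (-2.48 ± 0.30, FDR = 2.54e-08), and miR-17-5p had 1437, 995, 687 and 1562 and 294, 569.8, 564 and 507 CPM (-1.27 ± 0.27, FDR = 0.000248). miR-19b-3p fell (-2.27 ± 0.34), as did miR-19a-3p (-1.85 ± 0.46) and miR-18a-5p (-1.54 ± 0.39). With the other arms counted, 8 of 11 mature miRNAs of at least 10 CPM mapped to the cluster were down-regulated, and 1, miR-92a-1-5p, was up-regulated. Of all 321 miRNAs at that level, 94 were down-regulated and 63 up-regulated. miR-92a-3p, the sixth guide strand, kept a log2 fold change of -0.60 ± 0.16, within the threshold of 2-fold. miR-19b-3p and miR-92a-3p also have hairpins on chromosome X, in a cluster with miR-106a-5p. Their values need not come from chromosome 13 alone.

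Of the paralog clusters, miR-106a-5p (chrX:134170198-134170278) fell most, from 186, 151.7, 104 and 253 CPM to 12.7, 13.1, 15.2 and 13.3 CPM (-3.67 ± 0.31, FDR = 1.14e-11). The spheroid values lay close together, far below the adherent ones. The related miR-93-5p, the fourth most abundant miRNA by mean level, had 82139.9, 67231, 60507 and 92971 CPM and 71797, 46535, 44599.8 and 48815 CPM. Its groups overlapped through spheroid replicate 1 (-0.52 ± 0.17, FDR = 0.014). In all, 2 of 6 tested members of the paralog clusters were down-regulated, with miR-19b-3p and miR-92a-3p not counted among them. Over the seed AAAGUGC it was 4 of 6 miRNAs of at least 10 CPM. Of all 321 miRNAs at that level 94 were down-regulated, a share close to the 2 of 6.

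All 5 members of the family of miR-130, miR-301 and miR-454 were down-regulated, against 15.5% of all tested miRNAs, with a median of -2.61. miR-130a-3p had 2675, 2177, 1407 and 3864 CPM in the adherent and 298, 334.6, 306 and 254 CPM in the spheroid libraries (-3.09 ± 0.32, FDR = 2.2e-09). miR-454-3p had 2007, 1179, 957 and 2692 and 184, 307, 307 and 284 CPM (-2.66 ± 0.29, FDR = 5.53e-09). miR-301a-3p, which lies with miR-454 in introns of SKA2 on chromosome 17, fell (-1.65 ± 0.34), as did miR-130b-3p (-1.70 ± 0.29). The summed level of the family was 3270 to 8363 CPM in adherent and 883 to 1054 CPM in spheroid libraries.

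The miR-29 family, known for repressing collagens and DNA methyltransferases, was down-regulated in 3 of 3 members, against 15.5% of all tested miRNAs. miR-29a-3p had 22109, 21540.4, 14259 and 30831 CPM and 9307, 7184, 6913 and 7841 CPM (-1.51 ± 0.19, FDR = 6.83e-08). For miR-29c-3p the values were 333, 195, 156 and 518 and 56.7, 45.7, 41.6 and 51.3 CPM (-2.62 ± 0.30, FDR = 1.22e-08). miR-29b-3p was only just past the threshold (-1.02 ± 0.29), and its groups overlapped. Its call was lost without adherent replicate 1 (-0.94), adherent replicate 4 (-0.79, edgeR FDR = 0.0292) or spheroid replicate 1 (-0.99), and with an offset fitted on GC content it was at -0.0089 and miR-29a-3p at -0.94, so that 1 of the 3 members was then called.

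Both arms of miR-335, a miRNA in an intron of the imprinted gene MEST (chr7:130496111-130496204), fell. miR-335-5p had 145, 96.2, 62.7 and 234 CPM in adherent and 7.97, 13.7, 3.58 and 6.46 CPM in spheroid libraries (-4.11 ± 0.52, FDR = 9.41e-08), and miR-335-3p had 63.8, 53, 32 and 89.8 and 3.75, 7.35, 4.03 and 13.3 CPM (-3.04 ± 0.44, FDR = 7.71e-07). The adherent values of the 5p arm ranged widely, but the lowest was above the highest spheroid value, as the rule for naming it required. Among single miRNAs, miR-374b-5p (in FTX, chrX:74218547-74218618) fell (-2.72 ± 0.36), as did miR-32-3p (in TMEM245, chr9:109046229-109046298) (-2.52 ± 0.42) and miR-12135 (in NEO1, chr15:73299910-73299979) (-3.48 ± 0.61).

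Adherent replicates ordered alike across these miRNAs. Among the 94 down-regulated miRNAs of at least 10 CPM, adherent replicate 4 was the highest adherent library for 89 and adherent replicate 3 the lowest for 66, against 210 and 163 of all 321 miRNAs at that level. Among the 63 up-regulated ones, adherent replicate 3 was the highest for 40 and adherent replicate 4 the lowest for 25, against 66 and 31 of all 321. Without adherent replicate 4, 223 miRNAs were differentially expressed, and with the 2 shallower adherent libraries alone 164, of which 83 were up-regulated. Calls lost without adherent replicate 4 included those of miR-30c-5p (-0.90), miR-27a-3p (-0.96) and miR-9-5p (-0.97), and without spheroid replicate 1 that of miR-1180-3p (0.95). The call of miR-196b-5p was lost without adherent replicate 3 (0.96), spheroid replicate 3 (0.96) or spheroid replicate 4 (0.99). The part of this spread in the fold changes was not tested.

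Other families moved in part, and their counts are to be read against the 94 down-regulated and 63 up-regulated of 321 miRNAs at 10 CPM or more, and the 15.5% and 16.7% of all tested. Of the miR-15/16 family, which represses BCL2 and cyclins, 3 of 6 members fell, miR-16-5p from 38277, 24925, 23204 and 44799.5 CPM to 7688, 11965, 10680.1 and 11978 CPM (-1.63 ± 0.19, FDR = 1.88e-08). Among miR-30 guide strands 3 of 5 fell, miR-30e-5p (-1.97 ± 0.20), miR-30b-5p (-1.70 ± 0.39) and miR-30c-5p (-1.05 ± 0.25). In the miR-23/24/27 clusters 2 of 5 fell, miR-23a-3p (-1.41 ± 0.25) and miR-27a-3p (-1.12 ± 0.25). Of 5 tested p53-linked miRNAs 3 fell, namely miR-215-5p (-1.73 ± 0.36), miR-192-5p (-1.36 ± 0.23) and miR-194-5p (-1.27 ± 0.29), and the best known p53 target, miR-34a-5p, had a log2 fold change of -0.40 ± 0.20 (FDR = 0.0969). Among HOX-cluster miRNAs, miR-10b-5p fell (-2.14 ± 0.22), as did miR-10a-5p (-2.07 ± 0.20), while miR-196b-5p rose (1.13 ± 0.21). The miR-193 arms rose in 3 of 3 tested members, miR-193b-5p (2.84 ± 0.34), miR-193b-3p (1.55 ± 0.27) and miR-193a-5p (1.52 ± 0.36), and the clustered miR-365a-3p fell (-1.28 ± 0.29). In the X-linked miR-532 cluster, 2 of 7 fell (miR-660-5p, -1.29 ± 0.26, and miR-532-5p, -1.15 ± 0.20) and 1 rose (miR-501-3p, 1.10 ± 0.31). The miR-501-3p call was lost without adherent replicate 1 or 4 or spheroid replicate 1 or 4, at 0.85 to 1.10, and with the GC offset (0.83, edgeR FDR = 0.0524).

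**Figure D3:**
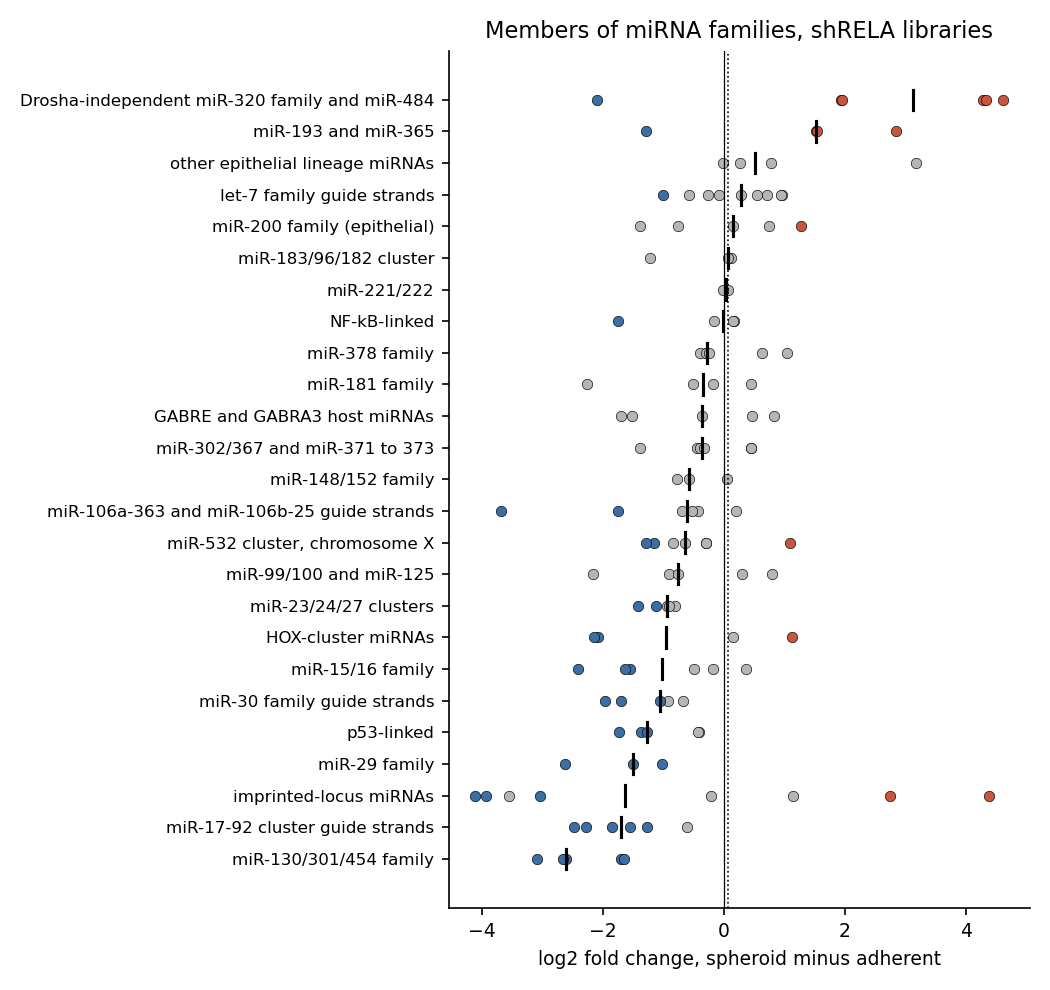
Log2 fold change of each tested member of 25 miRNA lists in spheroid against adherent shRELA libraries, with up-regulated members in red, down-regulated ones in blue, others in gray, list medians as black ticks and the median of all 905 miRNAs as a dotted line. The members of the miR-130, miR-301 and miR-454 family lie wholly on the lower side, and the miR-320 members on the upper side with miR-484 opposite them.

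Most of the most abundant miRNAs stayed within 2-fold. Of the 10 with the highest mean level, 2 were differentially expressed, against 157 of the 321 miRNAs at 10 CPM or more. miR-21-5p, an oncogenic miRNA that represses PDCD4, had 76974, 51744, 46760.1 and 82912 CPM in adherent and 21529, 21970.2, 17027 and 16523 CPM in spheroid libraries (-1.75 ± 0.22, FDR = 1.12e-07), and miR-320a-3p rose as given above. let-7e-5p, the most abundant of all, went from 144013, 117974, 124383 and 135888 to 201953, 231194, 207547 and 216067 CPM without overlap, but its log2 fold change of 0.71 ± 0.13 was below the threshold of 2-fold. let-7a-5p (0.55 ± 0.13) likewise stayed below it, as did miR-125a-5p (-0.75 ± 0.17), miR-92a-3p (-0.60 ± 0.16), miR-99b-5p (-0.90 ± 0.19) and miR-103a-3p (-0.94 ± 0.17). Without spheroid replicate 1, miR-99b-5p and miR-103a-3p passed it, at -1.16 and -1.17, as did miR-103a-3p without adherent replicate 3 (-1.01) and miR-99b-5p with the GC offset (-1.38). let-7i-5p had 0.28 ± 0.19 (FDR = 0.214). The let-7 family restrains RAS, HMGA2 and LIN28. Its 9 guide strands summed to 266981 to 339064 CPM in adherent and 374927 to 462312 CPM in spheroid libraries, and 1 of the 9, let-7f-5p, was down-regulated (-1.001 on the log2 scale), just past the threshold. That value was within 2-fold under several alternatives and was 0.13 with an offset fitted on GC content, while let-7a-5p and let-7e-5p then rose past 2-fold (1.37 and 1.23).

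Of 4 NF-κB-linked miRNAs, miR-21-5p alone was differentially expressed. miR-155-5p, induced by NF-κB in many cells, had 38.8, 50.9, 45.9 and 42.2 CPM in adherent and 30, 42.5, 47.4 and 79.8 CPM in spheroid libraries (0.17 ± 0.30, FDR = 0.65), and its groups overlapped. miR-146a-5p, which restrains NF-κB through TRAF6 and IRAK1, had 23085, 18625, 18467 and 23784 and 21205, 25285, 22197 and 24495 CPM (0.15 ± 0.17, FDR = 0.477). Its relative miR-146b-5p had a log2 fold change of -0.17 ± 0.21 (FDR = 0.525). A list of 10 miRNAs mentioned by the study, most of them chosen there on these libraries, held 2 down-regulated members and no up-regulated one. The 2 were miR-335-5p and the study's qRT-PCR control miR-30e-5p. Of all tested miRNAs, 15.5% were down-regulated and 16.7% up-regulated. The list leaves out others that the study tabulates, among them miR-200c-3p, which was up-regulated. miR-452-5p, hosted by GABRE (chrX:151959628-151959712), had 22, 13, 8 and 26 counts in the adherent and 3, 3, 1 and 1 counts in the spheroid libraries, a ratio of 0.294 after scaling (95% counting interval 0.122 to 0.613), and its FDR was 0.0286.

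Lists with no differentially expressed member, most of which hold the guide strands alone, were those of miR-99, miR-100 and miR-125, miR-221 and miR-222, the miR-181 family, the cluster of miR-183, miR-96 and miR-182, the hypoxia-linked miR-210 arms, the GABRE and GABRA3 host miRNAs, the miR-378 family, the family of miR-148 and miR-152, the pluripotency-linked clusters of miR-302 and miR-371, and 4 other epithelial miRNAs. Among the arms these lists leave out, up-regulated ones included miR-302a-5p (1.02) and miR-125a-3p (1.53). At mean levels of 1.83 and 1.33 CPM, miR-204-3p (3.32) and miR-125b-2-3p (2.82) were also up-regulated. Down-regulated ones included miR-181a-3p (-1.93), miR-148b-5p (-1.23) and miR-181b-3p, with a single count in the spheroid libraries. These arms were picked after their values were seen. The call of miR-302a-5p was lost without any 1 of 5 libraries (0.86 to 0.97) and that of miR-148b-5p likewise (-1.31 to -1.02). Of the pluripotency list, 6 of 9 passed the filter, at 48, 108 and 67 counts at most for miR-302a-3p, miR-302b-3p and miR-302d-3p, and miR-367-3p, miR-371a-3p and miR-372-3p had no count in any of the 8 libraries. With the GC offset the log2 fold changes of miR-302a-3p, miR-302b-3p and miR-302d-3p turned to the higher side, none of them called.

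Among 214 hairpins with both arms tested, paired by name, both arms lay on the same side of 0 in 56.5%, and both arms were differentially expressed in 34, in the same direction in 26 and in opposite directions in 8. With both arms at 10 CPM or more, both were called in 20 of 70 hairpins, in the same direction in 16 and in opposite directions in 4, namely those of miR-483, miR-106b, miR-194 and miR-1306. miR-483, encoded in an intron of the imprinted growth factor gene IGF2, showed the widest split of these. miR-483-3p had 12932, 14064, 13331 and 13939.6 CPM in adherent and 1039.8, 696, 687 and 1143 CPM in spheroid libraries (-3.93 ± 0.21, FDR = 2.84e-17), and miR-483-5p had 1168, 1332, 1733 and 1026 and 10909, 8096, 8279 and 8002 CPM (2.75 ± 0.34, FDR = 4.96e-08). The 3p arm thus outnumbered the 5p arm in every adherent library and the 5p arm the 3p arm in every spheroid library. miR-106b-5p fell (-1.74 ± 0.33) while miR-106b-3p rose (1.07 ± 0.20), the latter with the highest value in spheroid replicate 1 and 0.67 without that library. miR-194-5p fell (-1.27 ± 0.29) and miR-194-3p rose (2.28 ± 0.28). The 5p form comes from hairpins on chromosomes 1 and 11 and the 3p form from the latter alone. Their split therefore need not lie within a single hairpin. miR-1306-5p fell (-1.63 ± 0.50) and miR-1306-3p rose (1.197 ± 0.33), both miR-1306 calls being lost under several alternatives. In the imprinted-locus list, 2 of 8 members rose and 3 fell, against 16.7% and 15.5% of all tested miRNAs. The second riser was miR-296-3p, with 6 counts over the adherent and 55 over the spheroid libraries.

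The culture difference varied with base composition. Of the tested miRNAs 795 were matched to a RefSeq mature sequence. Across them the log2 fold change had a Spearman correlation of 0.458 with the GC content and of 0.561 with the share of G, against -0.295 for U, -0.246 for A and -0.154 for C, and of -0.012 with length. Below 35% GC, 1 of 46 miRNAs was up-regulated and 22 were down-regulated, with a median of -1.72. At 65% GC and above, 27.2% were up-regulated and 1.6% down-regulated, with a median of 1.28. The same description gave 0.560 for the spheroid change under shNeg and 0.421 under shRELB. miRNAs are not independent replicates, and all share the libraries, so that no test is attached to these values.

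The same gradient appeared within the adherent group. Among 290 miRNAs of at least 10 CPM with a sequence, the difference between adherent replicates 3 and 4 had a Spearman correlation of 0.572 with GC content. Over miRNAs at that level it also correlated with the spheroid change, at 0.733, and at 0.740 with the spheroid change taken against adherent replicates 1 and 2, which do not enter that difference. It was smaller in size, with a standard deviation of 0.59 against 1.65 for the log2 fold change. For miRNAs below 45% GC, the median log2 ratio of an adherent library to the mean of the other 3 was 0.25, -0.26, -0.55 and 0.54 in replicates 1 to 4, an order that is also that of their depth. The part of library preparation or depth in the culture difference was not tested. After an offset fitted on GC content in each library, an alternative chosen after seeing the data, 204 of 795 miRNAs were differentially expressed, and 172 of the 250 called among them without the offset were still called. The offset left miR-29a-3p at -0.94, miR-301a-3p at -0.95 and miR-21-5p at -0.87, within 2-fold, and miR-12135 at -1.65 and miR-32-3p at -1.07 with FDR of 0.0276 and 0.0105. Further calls lost under it on the lower side were those of miR-29b-3p (-0.0089), miR-9-5p (-0.13), miR-365a-3p (-0.15), miR-30c-5p (-0.67), miR-148b-5p (-0.67), miR-19a-3p (-0.85) and miR-215-5p (-0.94). On the higher side they were those of miR-106b-3p (0.57), miR-1180-3p (0.73), miR-1306-3p (0.78) and miR-501-3p (0.83).

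**Figure D4:**
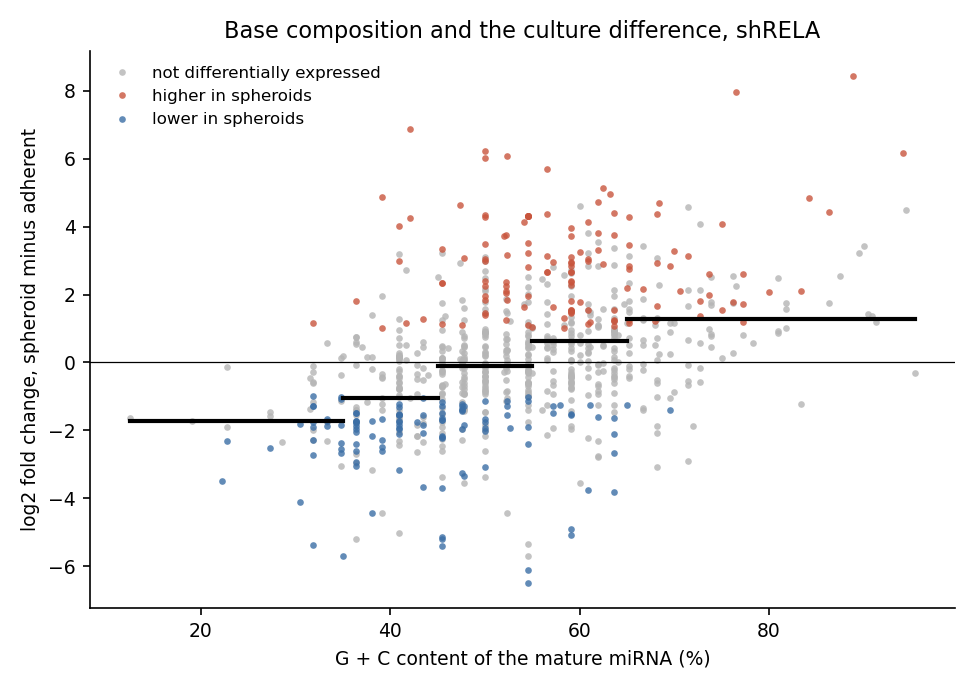
Log2 fold change of spheroid against adherent shRELA libraries (y) against the GC content of the mature miRNA in percent (x) for 795 miRNAs, with up-regulated ones in red, down-regulated ones in blue and black bars at the median of each GC class. The medians climb from -1.72 below 35% GC to 1.28 at 65% GC and above.

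Late-numbered miRNAs, most of them at low level, were seldom called as down-regulated, and their up-regulated share was near that of all tested. Of the 172 tested miRNAs numbered 5000 and above, 31 were up-regulated (18.0%) and 6 down-regulated (3.49%), at a median level of 1.30 CPM. Among all tested the shares were 16.7% and 15.5%. Of the 467 numbered below 1000, 68 were up-regulated (14.6%) and 116 down-regulated (24.8%) at a median level of 13.2 CPM. A miRNA near 1 CPM can pass the filter through spheroid libraries alone. The part of the filter in these directions was not tested.

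The spheroid change under shRELA was then set against that under shNeg, which shares no library with it. Over the 905 miRNAs the 2 changes had a Spearman correlation of 0.785 and the same sign in 80.2%. Of the 291 miRNAs differentially expressed under shRELA, 213 were called in the same direction under shNeg, which is 73.2% of the 291 and 55.9% of the 381 called there, and 1 in the opposite one. The difference of the 2 changes, tested in the same model, was significant for 68 miRNAs (7.51%), 38 with a higher (4.20%) and 30 with a lower (3.31%) change under shRELA. For 55 of the 68 the change was smaller in size under shRELA than under shNeg. The 68 were chosen on the difference of these same changes, and more miRNAs were called under shNeg (381) than under shRELA (291). The share over all 905 was not computed, so the 55 are not read as a trait of the 68. Spheroid shNeg replicate 1 stood apart, with 432 miRNAs with a count against 814 to 887 in the other 3, and without it 77 miRNAs differed, 43 higher and 34 lower. Spheroid shNeg levels spread widely for some, miR-483-5p from 12333 to 71792 CPM and miR-1306-5p from 11.8 to 102 CPM. The balance of directions depended on the scaling, with 55.9% of the calls on the higher side by TMM, 34.8% with median-ratio size factors and 27.5% with library totals alone.

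miR-378a-3p, from an intron of PPARGC1B (chr5:149732825-149732890), had the lowest FDR for this difference. Under shRELA it had 2350.1, 1984, 2416 and 2548 CPM in adherent and 3774, 3709, 2997 and 3893 CPM in spheroid libraries, and under shNeg 3914 to 4896 CPM in adherent and 1142 to 1964 CPM in spheroid libraries. The spheroid change was 0.63 ± 0.18 under shRELA and -1.45 ± 0.18 under shNeg, a difference of 2.08 ± 0.25 (FDR = 1.17e-06). miR-146b-5p fell under shNeg (-2.20 ± 0.22) with 472 to 567 CPM in adherent and 96.2 to 128 CPM in spheroid libraries, and under shRELA it started lower, at 178 to 265 CPM, and had 174 to 213 CPM in spheroids, so that the difference was 2.03 ± 0.30 (FDR = 2.95e-05). miR-146a-5p differed alike (1.35 ± 0.24, FDR = 0.000166). miR-200c-3p, which represses the mesenchymal factors ZEB1 and ZEB2, rose under shRELA, with 2537, 1869.6, 2151 and 2638 CPM in adherent and 3376, 6293, 5751 and 6783 CPM in spheroid libraries (1.27 ± 0.20, FDR = 4.1e-06), and had -0.64 ± 0.20 under shNeg, a difference of 1.91 ± 0.28 (FDR = 2.95e-05). miR-486-5p and miR-1180-3p rose under both and rose less under shRELA, with differences of -2.16 ± 0.32 and -1.59 ± 0.25 (FDR = 2.95e-05 and 4.62e-05). Spheroid libraries under shNeg held 412 to 708 CPM of miR-486-5p and those under shRELA 63.1 to 97.9 CPM.

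**Figure D5:**
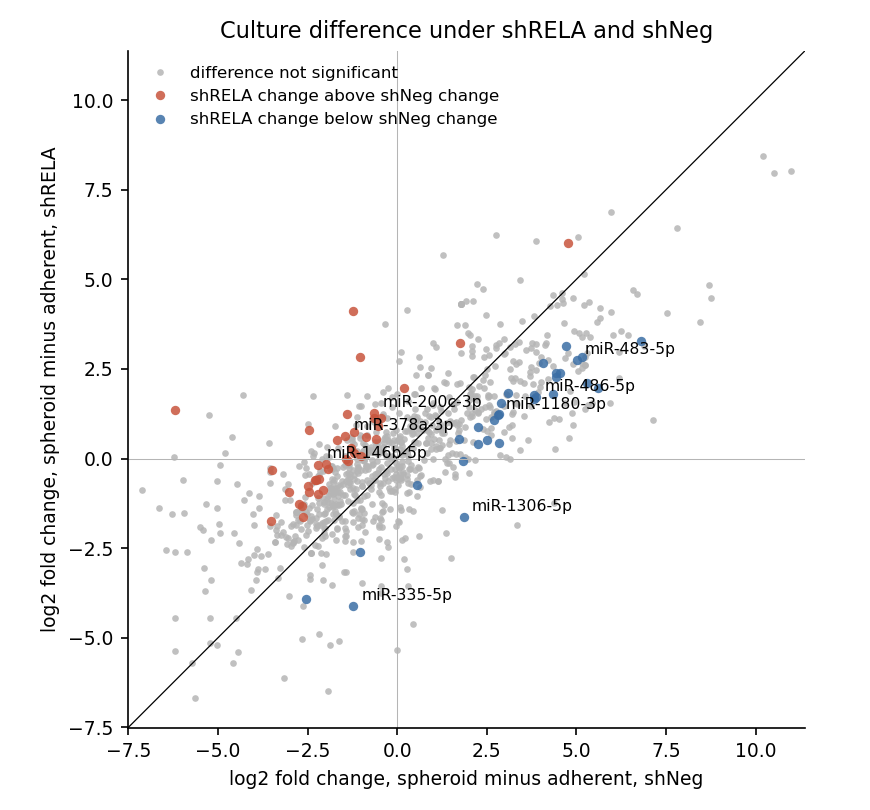
Log2 fold change of spheroid against adherent libraries under shRELA (y) against that under shNeg (x) for 905 miRNAs, with the line of equality, and in color the 68 miRNAs whose 2 changes differed. Most miRNAs follow the line. Many colored ones, chosen by the difference of the 2 changes, lie nearer to 0 on the shRELA axis than on the shNeg axis.

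Against shRELB, which also shares no library, the correlation was 0.779 and the sign was the same in 83.0%. Of the 291 miRNAs, 163 were called in the same direction under shRELB, which is 56.0% of the 291 and 71.8% of the 227 called there, and 147 were called in the same direction under all 3 shRNAs. The difference of the changes was significant for 13 miRNAs (1.44%), 11 higher (1.22%) and 2 lower (0.221%) under shRELA. Without spheroid shRELB replicate 3 this count was 2. It was 33 without spheroid shNeg replicate 1, which belongs to neither change but enters the filter, the scaling and the estimate of spread. miR-509-3p differed most clearly, rising by 6.01 ± 0.27 under shRELA and 2.54 ± 0.23 under shRELB (adherent 6.68 to 9.87, spheroid 39.9 to 56.2 CPM), a difference of 3.46 ± 0.33 (FDR = 4.77e-09). miR-335-5p fell more under shRELA than under shRELB, with a difference of -3.55 ± 0.69 (FDR = 0.00348), and than under shNeg (-2.87 ± 0.69, FDR = 0.00351). Its adherent level was 62.7 to 234 CPM under shRELA, 52.9 to 74.3 CPM under shNeg and 13.6 to 28.6 CPM under shRELB, and one spheroid shNeg library had no count. miR-10b-5p also fell more (-1.44 ± 0.30). miR-205-5p, an epithelial miRNA, had 0.78 ± 0.18 under shRELA and -0.43 ± 0.18 under shRELB, a difference of 1.21 ± 0.25. For miR-184 and miR-92b-3p the differences were 1.37 ± 0.28 and 1.21 ± 0.23, and their adherent levels under shRELB, 707 to 873 and 790 to 989 CPM, were well above those under shRELA, 48.2 to 58.7 and 179.6 to 206 CPM. The FDR was 0.00348 for each of these 4 and was above 0.01 without spheroid shRELB replicate 3. For miR-10b-5p it was also above 0.01 without adherent shRELA replicate 1 or 4 or adherent shRELB replicate 2. The same held for miR-205-5p without adherent shRELA replicate 2, adherent shRELB replicate 1 or 2, or spheroid shRELA replicate 4. The miR-184 call was also lost without adherent shRELB replicate 4 and with the GC offset (edgeR FDR = 0.041).

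miRNAs known as markers of other cell types were read in the same libraries, and their part in the culture difference was not tested. Of the epithelial miR-200 family, miR-200c-3p rose and the other 4 members were not differentially expressed, miR-429 at 5 counts or fewer. Of 3 tested erythroid markers, miR-486-5p rose (1.72 ± 0.23, FDR = 3.03e-07) and miR-451a fell, from 89 counts over the adherent to 3 counts over the spheroid libraries. White blood cell markers had 2 to 6 counts at most in adherent libraries for miR-142-3p, miR-142-5p and miR-223-3p, and miR-150-5p, called as up-regulated, overlapped between groups (2.64, 3.05, 7.24 and 3.31 and 17.3, 8.4, 7.16 and 48.3 CPM) and was not called without spheroid replicate 4. The endothelial miR-126-3p fell from 6339, 6312, 3836 and 8826 CPM to 1144, 1464, 1269 and 1667 CPM (-2.19 ± 0.22, FDR = 8.17e-10), along with miR-126-5p (-2.16 ± 0.30). Of 5 fibroblast and smooth muscle markers, miR-143-3p fell (-1.95 ± 0.29) and miR-214-3p rose (3.12 ± 0.67), at 14 counts or fewer. Among muscle, liver and neural markers, the liver miRNA miR-122-5p had 28983, 19191, 21603 and 29399 CPM in adherent and 15972, 15261, 14322 and 14282 CPM in spheroid libraries (-0.73 ± 0.16), miR-9-5p fell (-1.09 ± 0.27), and miR-124-3p had no count in the 8 libraries. In such bulk libraries fewer cells with a miRNA and less of it per cell cannot be told apart.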

How the data were processed

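Small RNA libraries were prepared by the authors with a QIAseq miRNA kit and molecular identifiers, trimmed with Cutadapt, and mapped and quantified with miRDeep2 against miRBase and GRCh38. Whether identifiers were collapsed is not given in the sources used here. The deposited table holds estimated counts per mature miRNA and library, although its title names CPM. Of the non-zero values, 3.045% were not whole, on 84 miRNAs, and were rounded. After TMM scaling, a model was fitted in edgeR 4.0.16 (quasi-likelihood, R 4.3.3) over the 6 groups of all 24 libraries, for miRNAs at 1 CPM or more in at least 4 libraries. A miRNA was differentially expressed at a Benjamini-Hochberg FDR below 0.01 and a fold change above 2, the authors' thresholds. The fit was tested on simulated data. Of the tested miRNAs 24 had counts identical to another miRNA's, and counted once per identical set, 280 of 890 were called. No 2 shRELA libraries of a group agreed within sampling noise.

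Named were the 10 largest changes in each direction without overlap at 10 CPM or more and their other arms, the 10 most abundant miRNAs, members of 32 lists, and the 5 lowest FDR in each difference between shRNAs. miR-92a-1-5p, miR-106b-3p, miR-194-3p, both miR-1306 arms and the arms given for lists with no call lie outside this rule and were chosen after their values were seen. The comparison, the members and the lists were chosen with earlier results of these data known. Alternatives used other filters, scalings, thresholds, DESeq2 1.42.0, limma 3.58.1, thinned libraries, a replicate block and left-out libraries. The GC offset and the fit with the 2 shallower adherent libraries were added after seeing the data.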

Additional observations from a re-analysis of the deposited data

Results flagged for a closer look

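Among 204 groups of 4 libraries examined, 18 held a library far from the other 3. The groups are miRNAs read in the same 8 libraries and not independent, so that no chance rate is set beside this count. Most of the 18 came from spheroid replicate 1. In spheroid shRELA replicate 1 the level was 2053 CPM for miR-1290, 71797 CPM for miR-93-5p, 10909 CPM for miR-483-5p, 122190.0 CPM for miR-125a-5p, 56690 CPM for miR-92a-3p, 354 CPM for miR-484, 6404 CPM for miR-106b-3p and 97.001 CPM for miR-19b-3p, each above the other 3 spheroid libraries. It was also 198.2 CPM for miR-92a-1-5p and 0.47 CPM for miR-429, a single count where the other 3 had none. In the same library miR-196b-5p had 713 CPM and miR-196a-5p 11459 CPM, below the other 3. Spheroid replicate 4 was high for miR-224-5p (260.3 CPM) and miR-143-3p (9.88 CPM), and spheroid replicate 3 was low for miR-1306-5p (2.69 CPM) and had the only count of miR-181b-3p (0.45 CPM). Adherent replicate 3 was high for miR-1180-3p (367.4 CPM) and miR-150-5p (7.24 CPM).

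The spheroid change differed between shRELA and shNeg, by the test of the difference in the same model, for 20 of the named miRNAs. On the log2 scale, shRELA minus shNeg, it was higher under shRELA for miR-302d-3p (3.15), miR-378a-3p (2.08), miR-146b-5p (2.03), miR-200c-3p (1.91), miR-196b-5p (1.76), miR-17-5p (1.45), miR-146a-5p (1.35), miR-509-3p (1.24), let-7f-5p (1.22), let-7a-5p (1.13) and miR-16-5p (1.005). It was lower for miR-1306-5p (-3.49), miR-335-5p (-2.87), miR-193b-5p (-2.31), miR-483-5p (-2.26), miR-486-5p (-2.16), miR-106b-3p (-1.63), miR-29c-3p (-1.60), miR-1180-3p (-1.59) and miR-483-3p (-1.37). The value of miR-302d-3p rests on spheroid shNeg libraries at 0 to 0.70 CPM. That is below the 1.90 to 3.13 CPM to which 3 counts came there by library total.

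Against shRELB it differed for 7, higher under shRELA for miR-509-3p (3.46), miR-184 (1.37), miR-92b-3p (1.22), miR-205-5p (1.21) and miR-378a-3p (1.15), and lower for miR-335-5p (-3.55) and miR-10b-5p (-1.44).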

How the results depend on the processing

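Of 2503 values recomputed for 112 named miRNAs, 2331 kept their direction and side of the threshold, 144 lost their call, 13 gained one and 15 changed direction. The count of differentially expressed miRNAs, 291, was 160 at a mean of at least 10 CPM, where fewer miRNAs were tested, and 164 with the 2 shallower adherent libraries. It ranged from 223 (without adherent replicate 4) to 334 when one library was left out. The difference from shNeg, 68, was 109 at an FDR below 0.05, and 51 to 80 without one library. The difference from shRELB, 13, was 33 at an FDR below 0.05, 24 with no filter, 29 by DESeq2, 31 by the likelihood ratio test, 7 by limma and 32 with only the compared groups, and 2 to 33 without one library. Same-numbered libraries correlated at -0.38, -0.13, -0.16 and 0.03 in their deviations, and differently numbered ones at -0.272 to 0.334. Whether the numbers pair the libraries cannot be told from these values. With the replicate block the counts were 268, 56 and 11, and with the block and only the compared groups 262, 29 and 19. With the GC offset let-7f-5p was at 0.13, and miR-302a-3p, miR-302b-3p and miR-302d-3p, not called, at 0.23, 0.61 and 0.36. miR-146b-5p, near 0 and not called, was at 0.028 at a mean of at least 10 CPM, 0.00017 with library totals, 0.013 with thinned libraries and 0.20 with the GC offset. miR-155-5p, not called, ranged from -0.26 to 0.24 without one library and was at -0.094 with the 2 shallower adherent libraries, where miR-302b-3p was at 0.086 and miR-142-3p at -0.046. miR-142-3p, at a few counts, was at -0.15 by limma and -0.72 to 0.41 without one library. Except where stated, the cause was not tested. Depth limits miRNAs below about 1 CPM in spheroids.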
